A study of Mus musculus with 4 samples.

Results

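Perivascular macrophages (PVMs) of adipose tissue are resident macrophages that lie along blood vessels, take up material from the circulation and are recognised by a shared set of transcripts. The level of 10 such genes was followed here by symbol, out of 32285 genes counted: Lyve1, Folr2, Cd163, Vsig4 and Ednrb, which encode cell-surface receptors, F13a1, Pf4 and Selenop, which encode proteins that are secreted or act outside the cell, Cbr2, which encodes an enzyme, and Maf, which encodes a transcription factor. Macrophages were taken as cells with at least 5 UMIs of C1qa, C1qb and C1qc together per 10000 UMIs (C1q cells). These genes encode the chains of complement component C1q, and a UMI is 1 tagged mRNA molecule. The gate used none of the 10 genes.

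Single-cell transcriptomes came from the stromal vascular fraction, the non-adipocyte cells, of mouse brown adipose tissue (BAT). The 4 libraries were WT C57BL6/J mice at 10 weeks, db/db mice at 8 weeks and at 16 weeks, and mice on a high-fat diet (HFD). All 4 are labelled with the C57BL6/J strain, and db/db mice lack a working leptin receptor, become overweight and are diabetic. The HFD library is labelled 10 weeks old, whereas the study's methods describe 10 weeks of diet in adult WT mice, so its age at collection is not settled, and age and condition cannot be told apart in either model. There was 1 library per group, made from 3 pooled mice, so no difference between libraries has a replicate check and no test was run. All intervals are 95% intervals for counting error only.

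C1q cells numbered 1618 of 5944 cells in WT (27.2%), 5353 of 11648 in 8-week db/db (46.0%), 2125 of 5833 in 16-week db/db (36.4%) and 2094 of 5462 in HFD (38.3%). Their median depth was 4750 UMIs in WT, 2250 in 8-week db/db, 5053 in 16-week db/db and 5590 in HFD. General macrophage transcripts (Adgre1, Csf1r, Cd68 and 5 more) were all present in these cells, at 2963 to 4549 CPM (UMIs per 1000000 UMIs) in sum. Between 9.46% (16-week db/db) and 35.0% (8-week db/db) of C1q cells also passed the marker gate of another lineage, mostly stromal in WT and 8-week db/db and endothelial in HFD and 16-week db/db. The 16-week db/db library stood apart: Xist was seen in 37.7% of its cells against 0.0687% to 0.421% elsewhere, although the mice were described as male. Barcodes at or over the mitochondrial limit of 15% were 1.04% of that library and 68.5% of HFD, with WT and 8-week db/db between. Cells within 2-fold of the gate (5 to 10 per 10000) made up at most 17.9% of C1q cells (HFD). Any 2 libraries shared 7 to 25 cell barcodes. Lepr, the gene mutated in db/db, gave 25 UMIs in WT, 16 in 8-week db/db, 1 in 16-week db/db and 8 in HFD, and a 3′ tag does not read the mutation, so these counts check nothing.

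Promoter sequences are shown for 3 of the genes because Maf, itself one of the 10, encodes a factor that binds the half-site TGCTGA, sought on both strands. RefSeq start sites on GRCm38.p6 gave 12 windows of 250 bases before the start for 8 of the 10 genes, all but Lyve1 and Maf. The half-site was in 3 of the 12 windows, both of Folr2 and that of Ednrb, against 16.1% of all 32851 promoter windows of this length. The letters GAGGAA, also sought on both strands and a core of sites for the myeloid factor PU.1, were in 6 of the 12 windows against 23.3% of all, and no window held both motifs. The Selenop windows at chr15:3270517-3270766 and chr15:3270561-3270810 overlap and share the same GAGGAA match, which was counted for each. A match of letters is a description and not a binding site. No half-site was in the windows of Cd163, F13a1, Cbr2 and Selenop, which were lower than WT in db/db, or in that of Vsig4. Whether the half-site goes with the level of a gene was not tested. The windows of Folr2 (chr7:101845332-101845581, minus strand) and Ednrb (chr14:103843702-103843951, minus strand) are printed with the half-site in capitals. That of Pf4 (chr5:90772185-90772434, plus strand), a gene higher than WT in db/db, has none:
Folr2: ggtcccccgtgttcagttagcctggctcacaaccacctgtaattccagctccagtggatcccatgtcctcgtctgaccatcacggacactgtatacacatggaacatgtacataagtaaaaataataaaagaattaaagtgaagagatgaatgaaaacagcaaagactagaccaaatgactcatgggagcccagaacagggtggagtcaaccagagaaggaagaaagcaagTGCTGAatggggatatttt
Ednrb: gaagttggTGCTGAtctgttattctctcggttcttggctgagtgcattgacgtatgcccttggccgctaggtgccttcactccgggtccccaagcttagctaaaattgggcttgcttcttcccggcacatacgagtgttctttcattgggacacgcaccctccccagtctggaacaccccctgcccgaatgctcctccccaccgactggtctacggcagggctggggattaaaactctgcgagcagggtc
Pf4: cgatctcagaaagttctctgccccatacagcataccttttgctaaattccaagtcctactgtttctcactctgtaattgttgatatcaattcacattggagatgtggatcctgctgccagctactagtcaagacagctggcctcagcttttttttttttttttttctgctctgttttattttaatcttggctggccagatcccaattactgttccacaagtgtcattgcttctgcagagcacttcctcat
In Folr2 the half-site began at position -19 and in Ednrb at position -242, counted back from the start, with -1 the last base before it.

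Within C1q cells most of the 10 genes were lower in all 3 libraries of obese mice than in WT, in the order 8-week db/db, 16-week db/db, HFD. Summed over the 10 genes the level was 12110 CPM in WT, 8691 in 8-week db/db, 6402 in 16-week db/db and 3668 in HFD. On the log2 scale this was -0.48 (-0.49 to -0.47) against WT in 8-week db/db, -0.92 (-0.93 to -0.91) in 16-week db/db and -1.72 (-1.74 to -1.71) in HFD. The 3 C1q transcripts of the gate were themselves lower than WT, at 8935 CPM in WT, 6074 in 8-week db/db, 4965 in 16-week db/db and 5048 in HFD, and a gate of 20 per 10000 gave -0.36, -0.71 and -1.61 for the sum of the 10 genes. Selenop and Pf4 made up over 50% of this sum in every library. Without them the sum was 5700 CPM in WT, 3316 in 8-week db/db, 1200 in 16-week db/db and 594 in HFD, or -0.78, -2.25 and -3.26 against WT. The difference depended on the weighting of cells: the mean over cells in place of the summed UMIs gave -0.37 in 8-week db/db and -0.32 in 16-week db/db, which turns the order of the 2 db/db libraries. Selenop (-0.31 and -0.27) and Cbr2 (-0.82 and -0.81) turned likewise.

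The background was wide in these libraries. In 8-week db/db against WT, 2 of the 10 genes (Folr2 and Maf) were lower by at least 2-fold, beside 5.18% of all genes with 10 CPM or more in either library, and none was higher by 2-fold, beside 5.15%. In 16-week db/db against WT, 8 of 10 were lower by at least 2-fold beside 27.2% of all genes, and none higher beside 18.6%. Of these 8, Selenop lay just inside the fold at -1.03 and was at -0.75 with a C1q gate of 20 per 10000. As the mean over cells, Selenop (-0.27) and Cbr2 (-0.81) were no longer past 2-fold there, and F13a1 went from -2.09 to -1.11. For HFD against WT, 9 of 10 were lower, all but Selenop, beside 10.7% of all genes, and none was higher beside 13.5%. The median log2 ratio over all genes was -0.01, -0.22 and 0.15 in these 3 comparisons, and that of the 10 genes was -0.66, -2.01 and -3.22. Taken relative to the median of all genes, the sum of the 10 genes stood at -0.47, -0.70 and -1.87. The fold of 2 split genes of near-equal ratio: in 8-week db/db Folr2 lay at -1.03 and Maf at -1.08, just inside it, and Cbr2 at -0.90, just outside.

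**Figure D1:**
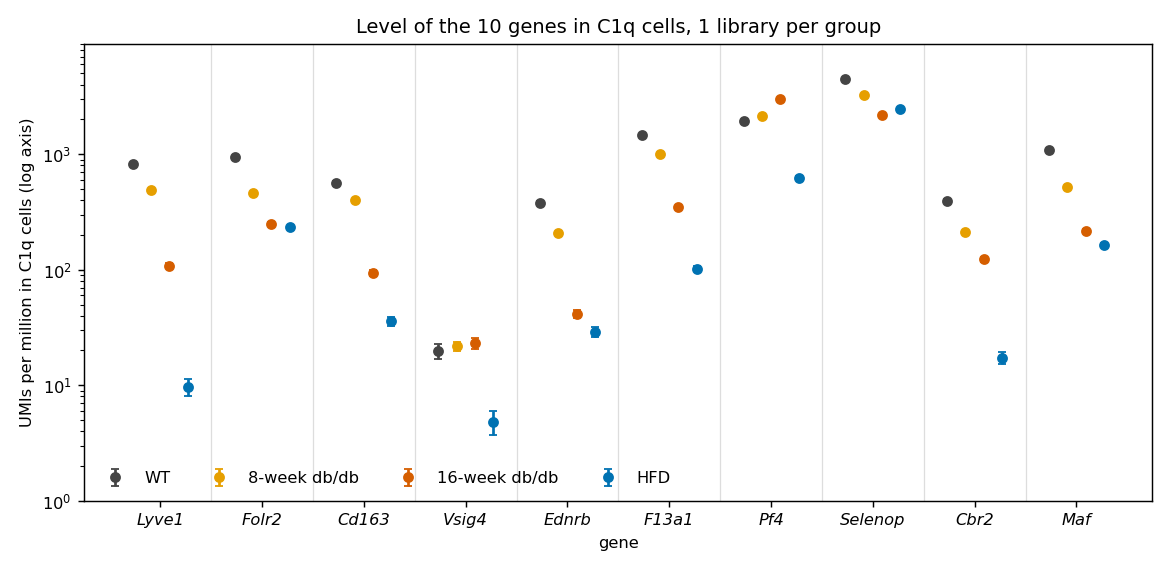
Level of each of the 10 genes in C1q cells, in CPM on a log axis, with 1 point per library (WT, 8-week db/db, 16-week db/db, HFD) and bars for the 95% Poisson interval of counting. WT is highest for all genes but Pf4 and Vsig4, and HFD is lowest for all but Selenop.

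Among the receptors, Lyve1 differed most from WT in HFD, Ednrb in 16-week db/db (-3.20) and Folr2 in 8-week db/db (-1.03). Lyve1 (chr7:110850607-110863239, GRCm38, minus strand), a receptor for hyaluronan known from lymphatic vessels and from perivascular macrophages, was at 828 CPM in WT, 490 in 8-week db/db, 108 in 16-week db/db and 9.64 in HFD. Against WT this was a log2 ratio of -0.76 (-0.80 to -0.72), -2.93 (-3.01 to -2.85) and -6.42 (-6.68 to -6.18). No interval of 1 library met that of another, and HFD held 141 Lyve1 UMIs, in 46 of its 2094 C1q cells. With other processing the HFD ratio ran from -7.25 (-7.62 to -6.91), without cells passing another lineage's gate, to -5.59 as the mean over cells. After each cell was thinned to 1000 UMIs, so that depth was equal, Lyve1 was seen in 608 of 1539 C1q cells in WT (39.5%), 1141 of 4068 in 8-week db/db, 8.83% of those in 16-week db/db and 0.526% in HFD. Stromal cells, which should lack it, gave 0.486%, 0.651%, 0.0975% and 0.276% in the same order, with unthinned median depths of 7419, 4369, 2880 and 5146 UMIs. The interval of the HFD share (0.263% to 0.939%) held the stromal share of that library, while by CPM C1q cells (9.64, 8.11 to 11.4) were above stromal cells (1.36, 0.677 to 2.43).

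Folr2 (chr7:101839988-101857194, minus strand), a folate receptor of resident macrophages, was at 945 CPM in WT, 464 in 8-week db/db, 249 in 16-week db/db and 233 in HFD. Its log2 ratios to WT were -1.03, -1.92 and -2.02. Unlike Lyve1, Folr2 was nearly as high in HFD as in 16-week db/db, which differed by 0.10 (0.03 to 0.17). Order and size of this gap depended on the processing. Without cells passing another lineage's gate, the ratios to WT were -2.16 in 16-week db/db and -2.06 in HFD. Without the mitochondrial limit they were -1.80 and -2.31. Cd163 (chr6:124304656-124330527, plus strand), the scavenger receptor for haptoglobin-haemoglobin complexes, was at 567 CPM in WT, 405 in 8-week db/db, 93.3 in 16-week db/db and 35.8 in HFD. These values correspond to -0.49 (-0.54 to -0.44), -2.60 (-2.69 to -2.52) and -3.99 (-4.12 to -3.86) against WT, with 8-week db/db closer to WT than to 16-week db/db.

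Ednrb (chr14:103814625-103844402, minus strand), an endothelin receptor, was at 380 CPM in WT, 207 in 8-week db/db, 41.3 in 16-week db/db and 29.1 in HFD. The ratios to WT were -0.88, -3.20 (-3.33 to -3.08) and -3.71 (-3.85 to -3.56) in the same order. The gap between 16-week db/db and HFD depended on the cells taken: without cells passing another lineage's gate the ratios were -3.56 (-3.70 to -3.42) and -5.38 (-5.67 to -5.11), and with a C1q gate of 20 per 10000 they were -2.88 and -4.32. Without the mitochondrial limit the gap closed, at -3.15 (-3.27 to -3.02) in 16-week db/db and -3.17 (-3.27 to -3.08) in HFD. Vsig4 (chrX:96247203-96293438, minus strand), a complement receptor of tissue macrophages, was the scarcest of the 10, at 19.7 CPM in WT, 21.7 in 8-week db/db, 23.2 in 16-week db/db and 4.79 in HFD. In 8-week db/db and 16-week db/db its ratio to WT was 0.14 (-0.11 to 0.38) and 0.23 (-0.03 to 0.50), intervals that hold 0. Its direction in 16-week db/db was not settled: a C1q gate of 20 per 10000 gave 0.58 (0.32 to 0.84), and the macrophage gate on Adgre1, Csf1r, Fcgr1, Mertk and Cd68 gave -0.31 (-0.58 to -0.04). In HFD it was -2.04 (-2.46 to -1.64), from 70 UMIs in 20 cells.

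The secreted products did not follow a single pattern. F13a1 (chr13:36867178-37050244, minus strand), the A chain of coagulation factor XIII, was at 1472 CPM in WT, 999 in 8-week db/db, 346 in 16-week db/db and 102 in HFD, with ratios of -0.56, -2.09 and -3.85. Selenop (chr15:3268547-3280508, plus strand), the selenium carrier of plasma that many cell types make, was the most abundant in WT, 8-week db/db and HFD, at 4471, 3236 and 2445 CPM, and stood at 2191 CPM in 16-week db/db. It had the narrowest range of the abundant genes, with ratios of -0.47 (-0.48 to -0.45), -1.03 (-1.05 to -1.01) and -0.87 (-0.89 to -0.85).

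Pf4 (chr5:90772435-90773383, plus strand), a chemokine best known from platelets that macrophages also make, was at 1938 CPM in WT, 2138 in 8-week db/db, 3011 in 16-week db/db and 629 in HFD. It was the one abundant gene of the 10 that was higher than WT in db/db, by 0.14 (0.12 to 0.17) at 8 weeks and 0.64 (0.61 to 0.66) at 16 weeks, and its ratio in HFD was -1.62 (-1.66 to -1.59). Relative to the median of all genes these ratios were 0.15, 0.86 and -1.77. The 4 platelet and megakaryocyte markers summed to 1.73 to 4.31 CPM in C1q cells, of which Gp9, Gp1bb or both were at 0 in WT, 8-week db/db and 16-week db/db. In 16-week db/db Pf4 made up 47.0% of the UMIs of the 10 genes, against 16.0% in WT.

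Cbr2 (chr11:120729489-120732114, minus strand), a carbonyl reductase, was at 395 CPM in WT, 212 in 8-week db/db, 123 in 16-week db/db and 17.3 in HFD, with ratios of -0.90, -1.69 and -4.51 (-4.70 to -4.33). Maf (chr8:115682942-115707794, minus strand), a bZIP transcription factor that takes part in macrophage identity, was at 1093 CPM in WT, 519 in 8-week db/db, 216 in 16-week db/db and 163 in HFD. Its ratios were -1.08 (-1.11 to -1.04), -2.34 (-2.40 to -2.28) and -2.74 (-2.81 to -2.68), the lowest of the 10 genes in 8-week db/db. Cbr2 in HFD was far under 16-week db/db, while Maf differed by 0.40 (0.32 to 0.48) between these libraries.

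**Figure D2:**
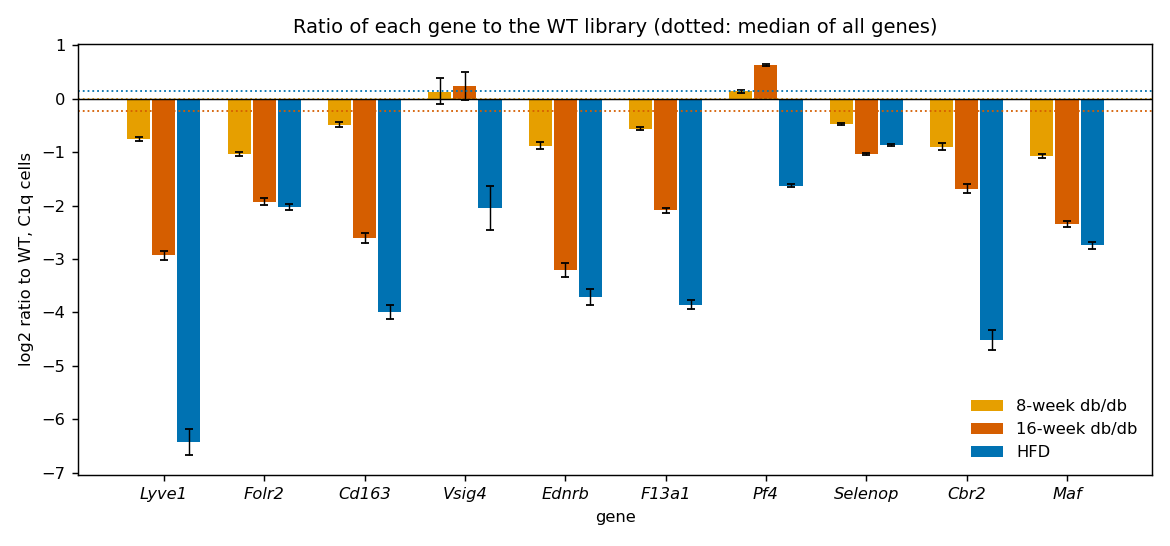
Log2 ratio to WT of each gene in C1q cells (bars: 8-week db/db, 16-week db/db and HFD, with 95% counting intervals), with the median of all genes as dotted lines. Bars point down except for Pf4 and Vsig4 in db/db, and Lyve1 in HFD reaches -6.42.

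The 2 ages of db/db mice were also set against each other, and 16-week db/db against HFD. Between 8 and 16 weeks 5 of the 10 genes (Lyve1, Cd163, F13a1, Ednrb and Maf) were lower by at least 2-fold, beside 19.8% of all genes, and none was higher, beside 9.16%. Lyve1 differed by -2.18 (-2.25 to -2.10), Ednrb by -2.33 (-2.46 to -2.20) and Pf4 by 0.49 (0.47 to 0.51). In 16-week db/db against HFD, 6 of 10 genes (Lyve1, Cd163, F13a1, Cbr2, Pf4 and Vsig4) were higher by at least 2-fold, beside 7.94% of all genes, and none was lower, beside 23.8%. Lyve1 was higher in 16-week db/db by 3.49 (3.24 to 3.75) and Cbr2 by 2.83 (2.64 to 3.02). These comparisons share libraries with those against WT, and batch, age and the mice cannot be told apart in them.

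The genes were also counted cell by cell. In cells thinned to 1000 UMIs, 75.8% of C1q cells in WT held a UMI of 3 or more of the 10 genes, against 56.6% in 8-week db/db, 35.9% in 16-week db/db and 18.6% in HFD. The differences from WT were -19.2 percentage points (-21.8 to -16.5), -39.9 (-42.9 to -36.8) and -57.1 (-59.8 to -54.3). Stromal cells treated alike gave 0.768%, 1.30%, 0.0975% and 0.414% in the 4 libraries. Cells with 5 or more of the genes were 53.8% of C1q cells in WT, 33.8% in 8-week db/db, 13.9% in 16-week db/db and 2.29% in HFD. Without thinning, the share with 3 or more was 84.2%, 67.0%, 73.5% and 64.8%, so that the order among the obese libraries was not the same at unequal depth. Thinning left out 79, 1285, 131 and 2 C1q cells in the same order of libraries.

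**Figure D3:**
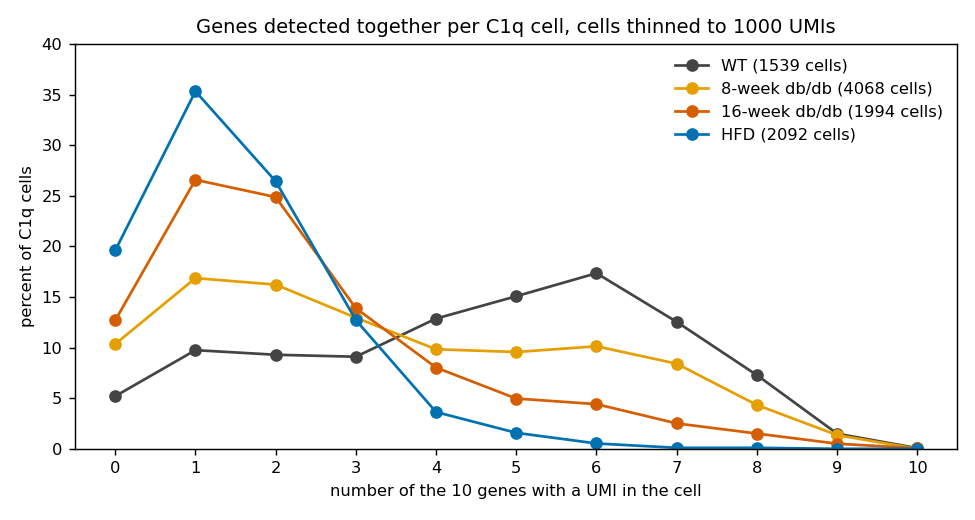
Percent of C1q cells (y axis) by how many of the 10 genes had a UMI in the cell (x axis), after thinning to 1000 UMIs, 1 line per library. The WT line peaks at 6 genes with 17.3% of cells, and the HFD line at 1 gene with 35.3%.

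The genes were found together in the same cells in every library. In thinned WT cells, the 608 with a Lyve1 UMI held 1326 CPM of Folr2 against 521 in the 931 without, and 36.2 CPM of Vsig4 against 8.59. In 8-week db/db the log2 ratio of cells with to cells without Lyve1 was between 1.20 (Selenop) and 2.28 (Ednrb) for the other 9 genes. The 176 Lyve1 cells of 16-week db/db held more of all 9 as well, from 1.48 for Folr2 (1.17 to 1.78) to 4.22 for Ednrb (3.69 to 4.77). HFD had 11 such cells, too few for most single genes, in which 8 of the 9 genes had a higher level and Vsig4 had no UMI. Cells with Lyve1 in 16-week db/db held 9108 CPM of Pf4 and 9114 of Selenop, above the 2543 and 5380 of Lyve1 cells in WT. Cells with Folr2 held more of the other 9 genes in each library, with an interval that held 0 for Vsig4 in WT (0.46, -0.67 to 1.60).

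Lipid-associated macrophages (LAMs) are macrophages of obese fat rich in transcripts for lipid uptake and lysosomes, and 4 of their genes, Trem2, Cd9, Gpnmb and Spp1, were set against the 10. Lyve1 cells held fewer UMIs of the 4 LAM genes in 8-week db/db (-2.17, -2.34 to -2.00), 16-week db/db (-2.93, -3.27 to -2.60) and HFD (-2.15, -3.77 to -0.92). In WT, where these genes were scarce, the ratio was -0.01 (-0.40 to 0.38). Folr2 cells differed in this respect: the ratio of the 4 LAM genes in cells with to cells without Folr2 was -0.86 (-0.98 to -0.75) in 8-week db/db, -0.20 (-0.29 to -0.10) in 16-week db/db and 0.40 (0.29 to 0.51) in HFD.

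C1q cells were then split by their UMIs of the 4 LAM genes after thinning. Cells with none made up 87.1% of WT, 61.7% of 8-week db/db, 28.4% of 16-week db/db and 38.2% of HFD, and cells with 2 or more made up 1.43% (22 cells), 19.6%, 52.6% and 39.7%. Cells with exactly 1, at the border between both, were 11.4%, 18.7%, 19.1% and 22.1%, so the split is a range and not a cell type. Among cells with none, the 10 genes summed to 11460 CPM in WT, 11941 in 8-week db/db, 13433 in 16-week db/db and 3662 in HFD. Against WT this was 0.06 (0.03 to 0.09), 0.23 (0.19 to 0.27) and -1.65 (-1.70 to -1.59). In db/db this rested on Selenop and Pf4. Without them the other 8 genes summed to 5635 CPM in WT, 4997 in 8-week db/db, 3505 in 16-week db/db and 801 in HFD, under WT in all 3 libraries, by -0.17 (-0.21 to -0.13), -0.68 (-0.76 to -0.61) and -2.81 (-2.93 to -2.70).

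The single genes differed within these cells. Lyve1 was at 723 CPM in WT, 772 in 8-week db/db, 452 in 16-week db/db and 10.0 in HFD, that is 0.09 (-0.02 to 0.21), -0.68 (-0.88 to -0.48) and -6.17 (-7.39 to -5.19) against WT. F13a1 was at 1435, 1504, 1302 and 229 CPM in the same order. Cd163 was at 586 and 624 CPM in WT and 8-week db/db and at 274 and 71.3 in 16-week db/db and HFD. Ednrb was at 372 CPM in WT and 164 in 16-week db/db (-1.18, -1.51 to -0.86). Pf4 exceeded its level in all C1q cells of db/db, at 2698 CPM in 8-week db/db and 5164 in 16-week db/db against 1849 in WT, and was at 658 in HFD. Maf and Folr2 were lower than WT in every obese library: Maf was at 1283 CPM in WT and at 800, 601 and 270, and Folr2 at 829 CPM and at 607, 290 and 104.

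In cells with 2 or more LAM gene UMIs the 10 genes summed to 4397 CPM in 8-week db/db, 5402 in 16-week db/db and 3569 in HFD. Against cells with none in the same library this was -1.44 (-1.49 to -1.39), -1.31 (-1.36 to -1.26) and -0.04 (-0.11 to 0.04). In HFD the sum therefore did not differ beyond counting error between both kinds of cell. Without Selenop and Pf4 the ratios were -2.28, -2.27 and -0.71 (-0.89 to -0.53), lower in LAM gene cells also in HFD. In HFD, Folr2 (275 against 104 CPM, 1.40, 1.03 to 1.78) and Selenop (0.15, 0.06 to 0.25) were higher in LAM gene cells. F13a1 (48.2 against 229, -2.25, -2.78 to -1.75), Lyve1, Cd163, Cbr2, Ednrb and Maf were lower, and the intervals of Pf4 and Vsig4 held 0. In the WT library 22 cells are too few for most genes. Other markers moved with the split: in cells with none the 6 endothelial markers summed to 14.9 CPM in WT, 67.8 in 8-week db/db, 341 in 16-week db/db and 1060 in HFD, the 5 monocyte genes to 216, 132, 113 and 388, and the 4 MHC class II genes to 10834, 9229, 3698 and 20393. Without the cells that passed another lineage's gate, the sum of the 10 genes among cells with none was 0.12, 0.10 and -1.51 against WT, and Lyve1 in HFD was -6.56 (-8.43 to -5.19). In 8-week db/db, Lyve1 (0.14, 0.02 to 0.26), Cd163 (0.19, 0.06 to 0.33) and F13a1 (0.17, 0.08 to 0.26) were then above WT. Folr2 (-0.42) and Maf (-0.67) were under WT there, and the intervals of Cbr2, Vsig4 and Ednrb held 0.

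**Figure D4:**
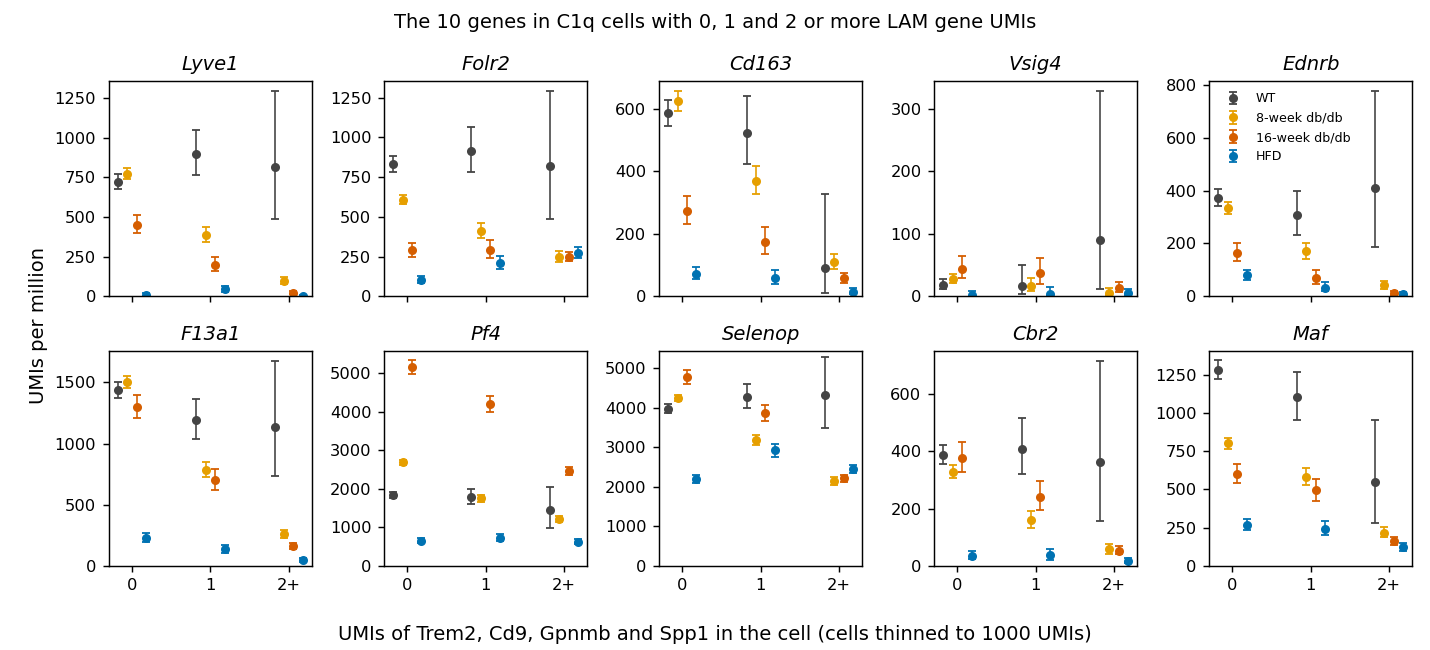
CPM of each gene (y axis, linear, its own scale in each panel) in C1q cells with 0, 1 and 2 or more UMIs of Trem2, Cd9, Gpnmb and Spp1 (x axis), after thinning, with 95% counting intervals, 1 colour per library. At 0 the 8-week db/db points of Lyve1, Cd163 and F13a1 lie close to WT and the HFD points lie near the axis, and the wide WT bars at 2+ rest on 22 cells.

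How far the genes mark macrophages was seen from the other lineages, which were assigned by marker lists in cells under the C1q gate and are given where a library had 20 or more cells. In WT, 8-week db/db and 16-week db/db C1q cells held 96.8% to 98.9% of all Lyve1 UMIs, 97.2% to 98.6% of Cd163, 96.6% to 98.2% of F13a1 and 96.3% to 98.0% of Cbr2. In HFD these shares were 63.5% (56.8 to 69.9), 82.2%, 81.7% and 92.0%. Of the 222 Lyve1 UMIs of HFD, 55 lay in 3 lymphatic endothelial cells, at 3952 CPM, and 3 such cells in 8-week db/db reached 6574 CPM, above any C1q value, although 3 cells are under the minimum of 20. Vsig4 lay in C1q cells to 96.0% or more in every library. Of all Folr2 and Pf4 UMIs, C1q cells of 16-week db/db held 86.5% and 88.0%.

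Selenop, Maf and Ednrb were shared with other lineages. Stromal cells held 963 CPM of Selenop in WT, 606 in 8-week db/db, 667 in 16-week db/db and 1159 in HFD, so that C1q cells exceeded them 4.64-fold in WT and 2.11-fold in HFD. Maf was at 219, 207, 94.4 and 202 CPM in stromal cells and at 214, 226, 60.4 and 223 in T and NK cells. In HFD the Maf level of C1q cells (163 CPM) was not above either, and after thinning it was seen in 16.0% of C1q cells and 18.3% of stromal cells. Ednrb was higher in endothelial than in C1q cells in all 3 libraries with 20 or more endothelial cells, at 484 CPM in 8-week db/db, 137 in 16-week db/db and 228 in HFD, and was at 259 CPM in HFD mural cells. Of all Ednrb UMIs, 97.1% were in C1q cells in WT and 19.4% (17.8 to 21.1) in HFD. Such a share depends on which cells a library holds: WT had 15 endothelial and 0 mural cells, and HFD had 1333 and 83. The WT share therefore does not show that Ednrb is confined to macrophages.

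Several of the genes were also found in monocytes. F13a1 was there at 409 CPM in WT, 322 in 8-week db/db, 85.5 in 16-week db/db and 271 in HFD. In WT this was under C1q cells by 3.60-fold, whereas in HFD monocytes (81 cells) exceeded C1q cells (271 against 102 CPM). Selenop was at 673 CPM in the 37 monocytes of WT. Cd163 was at 81.8 CPM in dendritic cells of 8-week db/db and 36.9 in those of HFD, where C1q cells held 35.8. Pf4 outside C1q cells reached 315 CPM in 8-week db/db monocytes and 192 and 196 in endothelial and mural cells of 16-week db/db, against 24.8 and 23.3 in those of HFD. Stromal cells held 14.4 to 44.0 CPM of Pf4 in the 4 libraries. The part of free RNA in these counts was not tested.

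**Figure D5:**
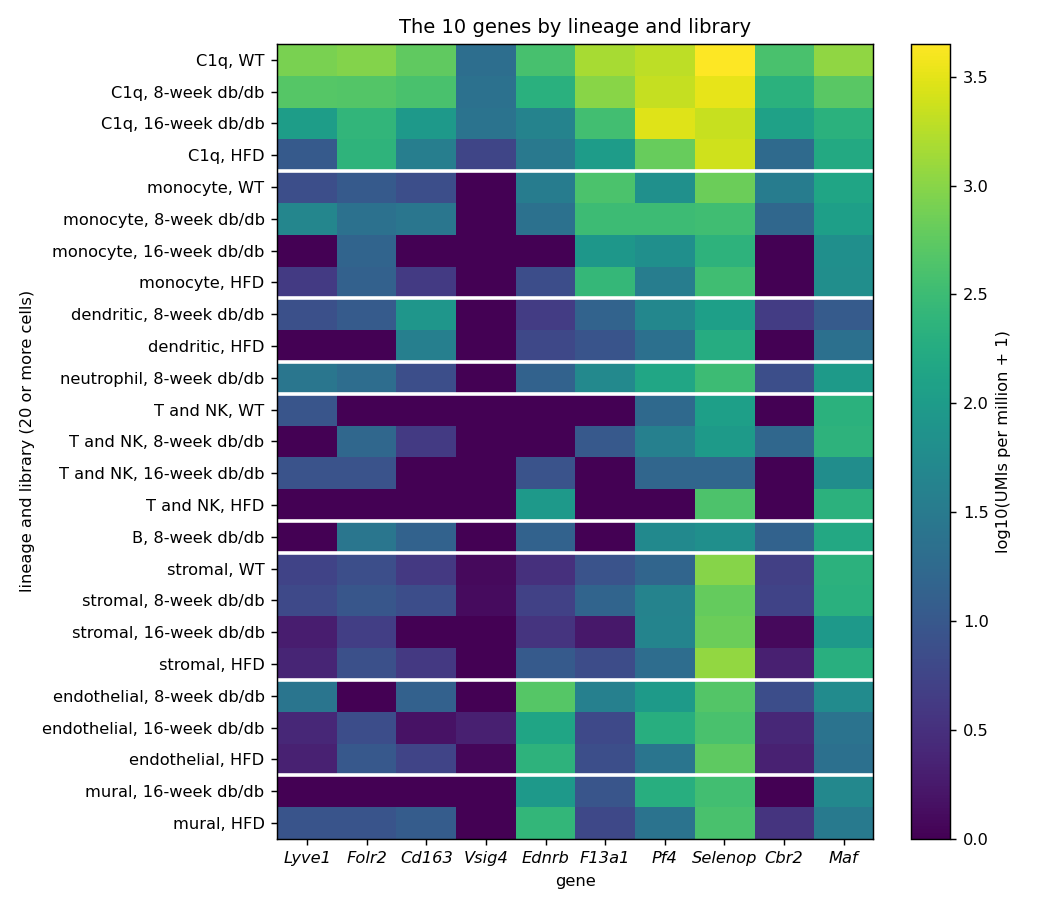
Level of the 10 genes (columns) by lineage and library (rows, with 20 or more cells), as log10 of CPM plus 1, by colour. The C1q rows are brightest for most genes, Selenop is bright in stromal rows, Ednrb in endothelial and mural rows, and F13a1 in monocyte rows.

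Some cells with general macrophage transcripts fell under the C1q gate. Cells that passed a gate on Adgre1, Csf1r, Fcgr1, Mertk and Cd68 but not the C1q gate numbered 51 in WT, 256 in 8-week db/db, 530 in 16-week db/db and 283 in HFD. Of these, 24, 186, 483 and 132 in the same order took no lineage by the marker lists, and the others took another lineage. In the 530 of 16-week db/db, Lyve1 was at 0.794 CPM, Folr2 at 102, Pf4 at 1012 and the 4 LAM genes at 5585. With this gate in place of C1q the sum of the 10 genes was -1.37 against WT in 16-week db/db, in place of -0.92.

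Other genes of resident macrophages were described from a list of 18. In 8-week db/db 8 of 18 were lower than WT by at least 2-fold, in 16-week db/db 15 and in HFD 13, and none was higher, with list medians of -0.87, -1.97 and -2.32 beside the shares and medians of all genes given with the 10 genes. The lectins Cd209f and Cd209g were among the lowest in each obese library. Cd209d was among them in 16-week db/db and HFD but not in 8-week db/db (-0.62). Cd209f was at 545 CPM in WT, 105 in 8-week db/db, 9.29 in 16-week db/db and 8.14 in HFD. Timd4, a phosphatidylserine receptor of long-lived resident macrophages, was at 43.8, 12.7, 0.648 and 0.889 CPM. Mrc1, the mannose receptor, was at 875, 749, 353 and 512 CPM, and Igf1, a growth factor, at 217, 282, 316 and 263, higher than WT in all 3 obese libraries by under 2-fold. Mgl2 was at 53.6 CPM in WT, 43.7 in 8-week db/db, 8.14 in 16-week db/db and 65.1 in HFD.

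Counts of the next lists are set beside the same background as above, 5.18%, 27.2% and 10.7% of all genes lower and 5.15%, 18.6% and 13.5% higher in 8-week db/db, 16-week db/db and HFD. All 12 LAM genes were higher than WT by at least 2-fold in each of the 3 obese libraries, with medians of 3.08, 3.99 and 3.81. Spp1 (osteopontin) was at 3.37 CPM in WT, 114 in 8-week db/db, 1192 in 16-week db/db and 77.5 in HFD, and Mmp12, a macrophage elastase, at 20.3, 341, 435 and 1065. Of 8 general macrophage genes, 1 was lower and none higher in 8-week db/db, 3 lower and 1 higher in 16-week db/db, and 1 higher and none lower in HFD, counts too near the background to be a result about this list. Aif1 was lowest in 8-week db/db (-1.36), Mertk in 16-week db/db (-1.19), and Adgre1, which encodes F4/80, was highest in HFD (1.01). The 4 MHC class II genes were lower by at least 2-fold in 16-week db/db, from -3.11 (H2-Eb1) to -2.68 (Cd74), and differed from WT by less than 2-fold in the other libraries. Of 7 dissociation stress genes, 5 were lower in 8-week db/db, 7 in 16-week db/db and 5 in HFD, with Hspa1b at 5321 CPM in WT and 45.5 in HFD. Their part in the levels of the 10 genes was not tested. Of 5 monocyte genes, 4, 3 and 3 reached 10 CPM in 8-week db/db, 16-week db/db and HFD or in WT, of which 3, 3 and 2 were lower and 1 (Chil3, in 8-week db/db) was higher.

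Ligands and partners of the 10 genes were mostly scarce in C1q cells. Of 16 listed, 5 reached 10 CPM in the comparison of 8-week db/db with WT, of which 4 were lower and none higher by 2-fold. The background is that given for the lists before. In 16-week db/db all 5 were lower, and in HFD 5 of 6 were lower and 1, Hp, was higher. Hmox1, the enzyme that breaks down haem taken up through Cd163, was at 1137 CPM in WT, 437 in 8-week db/db, 296 in 16-week db/db and 110 in HFD. C3, whose fragments Vsig4 binds, was at 562, 180, 10.7 and 115 CPM. Il10 was at 364 CPM in WT, 323 in 8-week db/db, 9.51 in 16-week db/db and 41.0 in HFD. The fibrinogen genes Fga, Fgb and Fgg had no UMI in C1q cells of any library, which allows up to 0.306 CPM in WT at a floor of 3 counts.

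The genes whose pattern was most like that of the 10 were sought over 25 sums, 1 per lineage and library, among genes of 10 CPM or more in at least 1 of them. The 10 with the highest Pearson correlation to the mean of the 10 genes (log2 of CPM plus 10) were Tnfrsf17 (r = 0.93), P2ry12, Siglec1, Ninj1, Cd5l, Ccl12, Gm10134, Fxyd2, C1qa and Cd209b (r = 0.89). The sums share libraries, depth and the gate, so that r is a description, and C1qa is part of the gate. P2ry12, a purinergic receptor, was at 30.1 CPM in WT C1q cells, 14.7 in 8-week db/db, 15.1 in 16-week db/db and 3.28 in HFD. Siglec1, the sialoadhesin of resident macrophages, was at 43.2, 15.1, 13.5 and 14.9 CPM, and Fxyd2 at 308, 279, 199 and 33.7. Among the 10 genes themselves, the correlation of each with the mean of the other 9 was highest for Cbr2 (0.94), Vsig4 (0.91) and Lyve1 (0.91) and lowest for Ednrb (0.42), Maf (0.55) and Selenop (0.71), all of which were abundant in stromal or endothelial cells.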

How the data were processed

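The authors deposited UMI counts, whole numbers for each gene in each barcode, from 10x Genomics 3′ libraries processed with Cell Ranger (7.1.0 per the study's notes, 6.0.0 per the file headers) on mm10, before quality filtering. Gene positions came from the GRCm38 annotation, in which 99.8% of gene IDs were found. As in the study, a barcode needed between 250 and 6000 genes, between 500 and 30000 UMIs, and less than 15% of its UMIs from mitochondrial genes. The libraries held 51357400 (WT), 61828295 (8-week db/db), 28504069 (16-week db/db) and 57279299 (HFD) UMIs before this filter.

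The gene lists, marker lists and the 10 genes were chosen with earlier results of these data known. Named genes were the 10, list members with the highest and lowest ratio to WT, other list members chosen after their values were seen, and the 10 genes of most similar pattern. The values of 1 listed gene are not reported here. C1q cells had 5 or more C1q UMIs per 10000; other cells took the lineage with the highest marker sum, if at least 5 per 10000 from 2 or more genes. No clustering and no doublet caller was used; an alternative left out C1q cells that passed another gate. CPM came from UMIs summed over cells and, being 3′ counts, were not divided by gene length. Intervals were exact (Poisson, Clopper-Pearson or conditional binomial, 95%). Differences of shares combined both intervals. Thinning drew 1000 UMIs per cell without replacement. No test was run, as each group is 1 library. Scripts were tested on simulated data. Python 3.11.15, numpy 2.4.6, scipy 1.17.1 and pandas 2.3.3 were used.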

Additional observations from a re-analysis of the deposited data

Results flagged for a closer look

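Pf4 in C1q cells differed in direction between the models: its log2 ratio to WT was 0.14 in 8-week db/db and 0.64 in 16-week db/db but -1.62 in HFD. With 1 library per group the difference was not tested.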

How the results depend on the processing

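Every alternative kept the direction of the summed level and of the share of cells with 3 or more genes, in 8-week db/db, 16-week db/db and HFD alike, and moved their size. The values follow in that order of libraries. The log2 ratio of the sum to WT was -0.48, -0.92 and -1.72 as reported. It was -0.36, -0.71 and -1.61 with a C1q gate of 20 per 10000, -0.58, -1.37 and -1.87 with the macrophage gate, -0.58, -1.17 and -1.90 without cells passing another gate. It was -0.47, -0.83 and -1.83 without the mitochondrial limit, -0.47, -0.81 and -1.79 without quality limits, -0.45, -0.99 and -1.75 in cells of at least 2000 UMIs. It was -0.49, -0.86 and -2.64 without Selenop, -0.58, -1.63 and -2.81 as the mean log2 ratio of the genes (10 CPM added), -0.37, -0.32 and -1.53 as the mean over cells. It was -0.43, -0.80 and -1.65 on totals without mitochondrial and ribosomal protein genes. The difference of shares from WT, in percentage points, was -19.2, -39.9 and -57.1 as reported. It was -19.7, -46.2 and -64.2 with a C1q gate of 20 per 10000, -26.8, -57.8 and -66.1 with the macrophage gate, -24.3, -52.5 and -67.1 without cells passing another gate. It was -15.5, -34.0 and -55.1 without the mitochondrial limit, -15.0, -33.5 and -53.6 without quality limits, -23.1, -45.2 and -61.3 without Selenop. It was -16.9, -39.9 and -52.3 at 2000 UMIs, -12.3, -24.3 and -40.0 with 2 or more genes, -23.1, -44.7 and -60.7 with 4 or more genes. The cause of these moves was not tested. The sum is led by Selenop and Pf4. Of 240 values of single genes under the alternatives, 72 stayed within their counting interval, 168 moved and 0 of the differences beyond counting error reversed; Vsig4 in 16-week db/db was on either side of 0 beyond its interval, at 0.58 and -0.31. Chosen after the data were seen, leaving out cells that pass another gate among those without LAM gene UMIs gave 0.12, 0.10 and -1.51, and leaving Selenop and Pf4 out of that sum turned it from 0.06 to -0.17 and from 0.23 to -0.68 in db/db and gave -2.81 in HFD. No paired analysis was possible because each group is 1 library. Few UMIs lay behind Vsig4 in HFD (70), which widens its interval.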
